A study of Mus musculus with 12 samples.

Results

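The genes of the structural proteins of central myelin were followed through 12 arrays of mouse spinal cord RNA. They were 9 of the 18193 named genes on the array: Mbp, Mobp, Cldn11, Mal, Cnp, Mag, Mog, Opalin and Omg. They were chosen by symbol as structural proteins of myelin, with earlier results of these data known. All 24 probe sets that carried 1 of these symbols alone were taken: 8 for Mbp, 5 for Mobp, 3 for Cnp, 2 each for Mal and Opalin, and 1 each for Cldn11, Mag, Mog and Omg. Affymetrix 3' arrays read a gene through probe sets, groups of short probes near the end of its transcript, and the values were log2 signals.

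The arrays formed 4 groups of 3 biological replicates: Olig2cre/DA-Cat and wild-type littermates at day 4, and the same genotypes at day 15. In Olig2cre mice Cre recombinase is made where Olig2 is active, which includes the oligodendrocyte lineage and motor neuron progenitors. DA-Cat is dominant-active β-catenin, a permanent form of the protein that carries canonical Wnt signals to the nucleus. All arms with DA-Cat also carried Cre and wild type carried neither, so the effects of the 2 alleles cannot be told apart. The labels tag the days as developmental stages. Their treatment protocol, the same for all 12 samples, instead tells of adults aged 8 to 10 weeks whose ventrolateral white matter was injected with lysolecithin, a demyelinating agent, or left unlesioned, and it names neither day. What the days are counted from is therefore not settled here, nor is the number of animals behind a sample stated.

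Oligodendrocytes wrap axons in a spiral of membrane whose inner faces are pressed together by basic proteins and whose outer faces are held by adhesion proteins and tight junctions. Compact myelin excludes most cytoplasm, and the tongue next to the axon keeps some, with its own proteins. In the mouse spinal cord these genes switch on in sequence around birth, as precursors leave the cell cycle, and the transcription factors Sox10 and Myrf drive many of them.

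The upstream sequences of the members are shown because most of these genes moved together in the comparisons that follow. RefSeq start sites of build GRCm38.p6 were used for 7 of the 9 genes. None was listed for Omg, and Mbp was not searched, since the search passed over its chromosome. The 250 bases before the start are given for 5 of them, 5′ to 3′ on the strand of the gene, and for Mag before the first of 3 listed starts. Capitals mark matches on either strand to CTTTGT, a core bound by SOX proteins such as Sox10, and to CTGGCAC or CTGGTAC, forms of the Myrf motif.
Mobp, chr9:120149492-120149741, plus strand: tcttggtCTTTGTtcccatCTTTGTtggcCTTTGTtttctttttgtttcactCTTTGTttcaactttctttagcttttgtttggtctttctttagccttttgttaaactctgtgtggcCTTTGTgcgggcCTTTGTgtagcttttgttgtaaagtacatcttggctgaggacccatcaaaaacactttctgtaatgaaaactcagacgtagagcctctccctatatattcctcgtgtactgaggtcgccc
Mog, chr17:37023399-37023648, minus strand: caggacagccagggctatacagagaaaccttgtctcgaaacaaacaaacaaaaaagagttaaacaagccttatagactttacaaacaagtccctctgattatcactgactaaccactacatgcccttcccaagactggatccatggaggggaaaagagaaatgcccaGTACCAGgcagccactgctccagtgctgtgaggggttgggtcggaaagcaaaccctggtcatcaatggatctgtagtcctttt
Mag, chr7:30914864-30915113, minus strand: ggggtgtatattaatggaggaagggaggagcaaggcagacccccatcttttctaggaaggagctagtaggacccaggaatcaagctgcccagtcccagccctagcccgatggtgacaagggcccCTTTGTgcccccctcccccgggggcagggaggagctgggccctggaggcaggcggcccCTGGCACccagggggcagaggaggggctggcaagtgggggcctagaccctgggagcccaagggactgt
Cnp, chr11:100574689-100574938, plus strand: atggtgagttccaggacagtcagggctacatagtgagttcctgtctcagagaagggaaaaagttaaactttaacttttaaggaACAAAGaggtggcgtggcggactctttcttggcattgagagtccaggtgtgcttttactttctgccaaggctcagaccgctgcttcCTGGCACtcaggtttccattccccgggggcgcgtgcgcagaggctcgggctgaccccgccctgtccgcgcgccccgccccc
Opalin, chr19:41077114-41077363, minus strand: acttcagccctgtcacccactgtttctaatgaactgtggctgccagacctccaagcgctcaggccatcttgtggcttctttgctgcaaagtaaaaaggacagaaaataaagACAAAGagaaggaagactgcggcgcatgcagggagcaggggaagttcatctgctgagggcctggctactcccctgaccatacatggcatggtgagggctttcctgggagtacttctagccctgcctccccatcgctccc

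CTTTGT was present in 4 of the 7 windows, against 16.5% of all 32851 windows of that length. The Mobp window held 6 matches, between 243 and 120 bases before the start. Of the 32851 windows it was the only 1 with as many, a count made after the repeat had been seen in this sequence. A Myrf form was present in 3 of the 7, against 5.93% of all windows: at 83 bases before the start in Mog, 68 in Mag and 81 in Cnp. CTTTGAT, a core bound by the TCF and LEF partners of β-catenin, shares its first 5 bases with CTTTGT. It was in 0 of the 7 windows and 3.21% of all, a share so low that 0 of 7 says little. The windows of Mal and Cldn11 held none of these letters. The motifs were chosen after the sequences were seen, so the shares over all windows are no test of these 7 genes. Mag was counted at its first start, and the window of its last listed start held no match. A match is a run of letters and not a site shown to be bound.

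All 12 arrays had nearly equal distributions, with medians between 6.14 and 6.19 and maxima between 14.71 and 15.05, so a shift shared by most genes would not be seen. Bacterial control probe sets, which match no mouse gene, had a median of 3.08. The labelled source is ventrolateral white matter, and the mean of 10 neuron genes lay between 12.22 and 12.61 on all 12 arrays, far above the array medians. Skeletal muscle genes varied widely within groups, from 5.25 to 11.38 in Olig2cre/DA-Cat and 5.16 to 7.87 in wild type at day 15. At day 4 they ranged from 5.47 to 8.38 in Olig2cre/DA-Cat and from 5.29 to 7.66 in wild type.

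The 4 groups stood in 1 order for 23 of the 24 probe sets: Olig2cre/DA-Cat day 4 lowest, then wild type day 4, Olig2cre/DA-Cat day 15 and wild type day 15. For 19 of them no 2 neighbouring groups overlapped. How many of all probe sets stood in this order, or were so separated, was not counted, so both counts lack a share to compare. The steps were of unequal size. Relative to wild type at day 15, the Mog signal stood at 1.37% in Olig2cre/DA-Cat day 4, 15.1% in wild type day 4 and 55.3% in Olig2cre/DA-Cat day 15. Mag stood at 7.83%, 43.8% and 69.3% in that order of groups, Cldn11 at 7.08%, 44.1% and 62.3%, and Opalin at 1.27%, 2.54% and 49.2%. Omg stood at 33.9%, 40.3% and 84.3%. Wild-type cord thus already held a large part of its later Mag and Cldn11 signal at day 4 and little of its Opalin signal. These percentages are ratios of geometric means with no background subtracted.

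**Figure D1:**
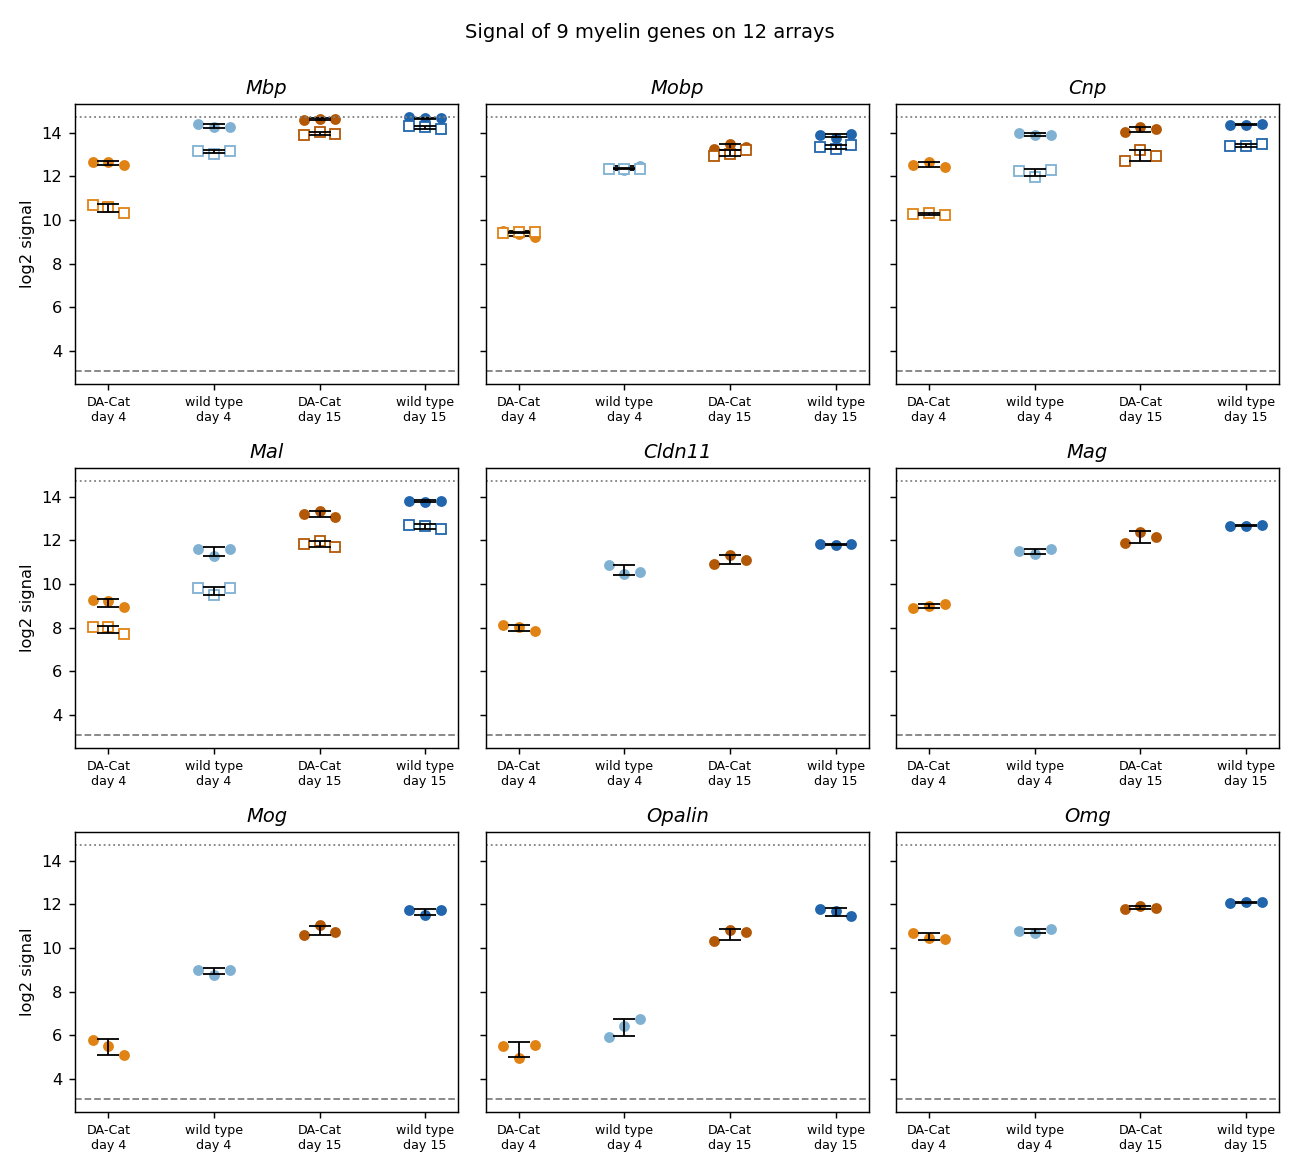
Log2 signal of the 9 genes on each array, by genotype and day; filled circles are the brightest probe set, open squares a dimmer one where the brightest lies within 1 log2 of the lowest array maximum, and bars are mean ± SD (n = 3). The dotted line is the lowest array maximum of 14.71 and the dashed line the bacterial control median of 3.08. Mog spans 5.10 to 11.75 and Omg only 10.43 to 12.10.

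The first comparison asked how the myelin genes stood in Olig2cre/DA-Cat cord at day 4. Of the 24 probe sets 21 fell, 0 rose and 3 did not pass, with a median difference of -1.69, where 1.08% of all 45037 probe sets fell, 0.415% rose and their median was 0.01. At the brightest probe set of each gene 8 of 9 fell, Omg being the exception, where 1.45% of all genes did and 0.561% rose. The brightest sets of Mbp, Mobp, Cnp and Mal are near the array maximum, and with each gene read at its brightest set outside that range 7 of 9 fell, Mbp and Omg being the exceptions. The values of the genotypes did not overlap for 22 of 24 probe sets and 9 of 9 genes, with every Olig2cre/DA-Cat array lower, which held for 10.1% of all probe sets and 10.3% of all genes. In RNA of whole tissue, fewer oligodendrocytes and less of the RNA in each cannot be told apart. Calls are from limma with Benjamini-Hochberg adjustment over all probe sets, at a threshold of 0.05.

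Mog, an immunoglobulin-like protein on the outermost lamella of the sheath, had 5.80, 5.51 and 5.10 in Olig2cre/DA-Cat, against values between 8.77 and 9.01 on the 3 wild-type arrays. The groups lay far apart, and the Olig2cre/DA-Cat values approached the bottom of the scale. The difference was -3.46 ± 0.16 (SE, adjusted p = 7.81e-08), or 9.09% of the wild-type signal; how far background raised that share was not tested. Mag, a sialic acid-binding lectin on the membrane that faces the axon, had values between 8.90 and 9.09 on the 3 Olig2cre/DA-Cat arrays, against 11.50, 11.36 and 11.59 in wild type. It fell by 2.48 ± 0.11 log2 (SE, adjusted p = 7.26e-08), to 17.9% of the wild-type signal, with no array near the other group.

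Mobp is a small basic protein of the dense line of compact myelin. Its brightest probe set had 9.48, 9.36 and 9.24 in Olig2cre/DA-Cat, against 12.38, 12.30 and 12.46 in wild type, a difference of -3.02 ± 0.09 (SE, adjusted p = 2.16e-09). Of the dimmer ones, 3 gave -2.91, -3.12 and -3.06. The remaining 1 was at 6.46 ± 0.04 in wild type (SD, n = 3) and gave -0.86 (adjusted p = 0.0399). The 4 brighter readings of Mobp were thus close to each other, and only the dim one was much smaller. That dim call was lost in 9 of 24 other settings, and the 4 others in 0.

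Mbp, the basic protein that zips the inner membrane faces together and is needed for compaction, gave 8 different readings. Of its probe sets 6 had a group mean within 1 log2 of the lowest array maximum of 14.71, and of these the dimmest had 10.67, 10.60 and 10.33 in Olig2cre/DA-Cat, against 13.17, 13.03 and 13.14 in wild type. It fell by 2.58 ± 0.09 log2 (SE, adjusted p = 7.9e-09), the largest difference of the 8. The other 5 bright ones fell by between 0.82 and 1.70 log2, with wild-type means from 14.05 to 14.31, and whether a ceiling compressed them was not tested. A dim set at 6.66 ± 0.22 in wild type (SD, n = 3) fell by 0.54 log2 (adjusted p = 0.0444), a call lost in 13 of 24 other settings. The last was unlike the rest, lay between 8.32 and 8.60 on all 12 arrays and differed by -0.02 (95% interval -0.18 to 0.13). The Mbp gene also makes golli transcripts from an upstream start, in neurons and other cells, and the files do not say which transcripts each probe set reads.

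Cldn11, the claudin of the tight junction strands between lamellae, had 8.11, 8.01 and 7.82 in Olig2cre/DA-Cat, against 10.88, 10.46 and 10.53 in wild type. The difference was -2.64 ± 0.12 (SE, adjusted p = 7.68e-08). Mal, a proteolipid that sorts proteins to lipid rafts, had 9.27, 9.21 and 8.93 in Olig2cre/DA-Cat, against 11.61, 11.26 and 11.59 in wild type. Neither gene had an array near the other group. Mal fell by 2.35 ± 0.11 log2 on its brightest probe set (SE, adjusted p = 8.79e-08) and by 1.78 ± 0.12 on the dimmer one (SE, adjusted p = 2.04e-06). Cnp, a phosphodiesterase that keeps cytoplasmic channels open in the sheath and is made early in the lineage, had 3 probe sets that fell. Its middle probe set had 10.29, 10.34 and 10.25 in Olig2cre/DA-Cat, against 12.24, 11.99 and 12.31 in wild type. The 3 sets gave -1.37, -1.88 and -1.68 (adjusted p = 6.13e-07, 1.31e-06 and 1.85e-06), the smallest being from the set near the array maximum.

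At the brightest probe set Opalin and Omg had the smallest differences of the 9 genes. Opalin, a sialylated membrane protein of late oligodendrocytes, was dim at day 4, with 5.52, 4.97 and 5.56 in Olig2cre/DA-Cat, against 5.92, 6.41 and 6.73 in wild type. It fell by 1.00 ± 0.21 log2 (SE, adjusted p = 0.0313), and this call was lost without any 1 of 5 of the 6 day 4 arrays (adjusted p up to 0.135). Its second probe set stayed under 5 in every group and is near background. Omg, an anchored leucine-rich repeat protein that neurons also make, had 10.69, 10.46 and 10.43 in Olig2cre/DA-Cat, against 10.77, 10.70 and 10.86 in wild type. The groups nearly touched, and the difference of -0.25 did not pass (95% interval -0.42 to -0.08, adjusted p = 0.149).

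**Figure D2:**
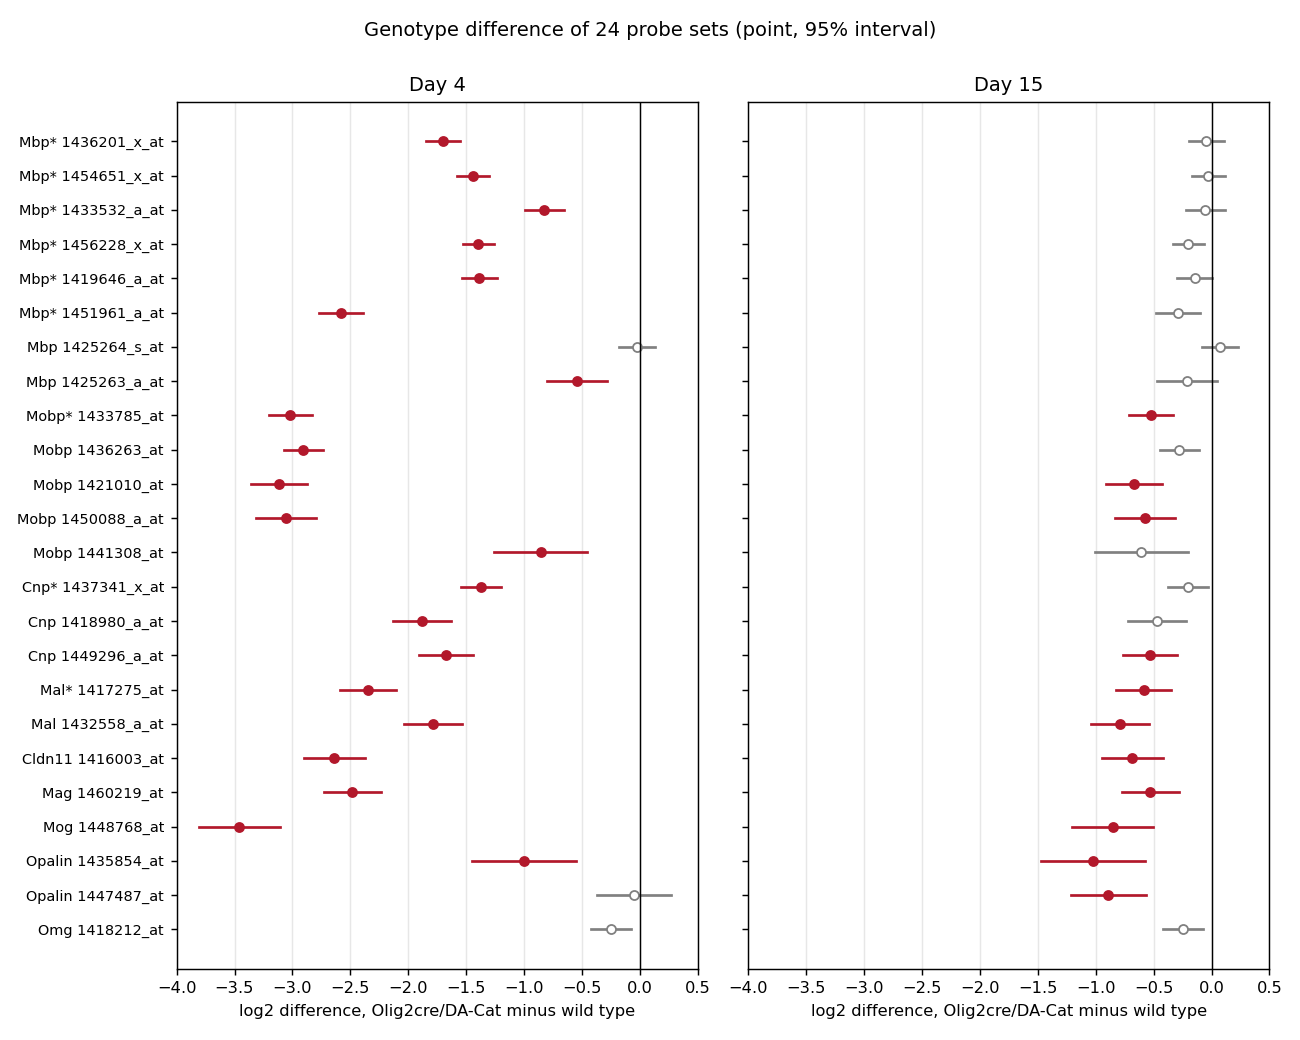
Log2 difference, Olig2cre/DA-Cat minus wild type, for each of the 24 probe sets at day 4 and day 15, as point and 95% interval from limma; filled red points passed an adjusted p of 0.05 and open grey ones did not, and an asterisk marks probe sets near the array maximum. At day 4 values reach -3.46 and 21 passed, while at day 15 none lies below -1.02 and 11 passed.

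At day 15 the same comparison gave smaller differences. Of the 24 probe sets 11 fell, 0 rose and 13 did not pass, with a median of -0.50, where 1.36% of all probe sets fell, 0.258% rose and their median was 0.01. At the brightest probe set 6 of 9 genes fell (Mobp, Mal, Cldn11, Mag, Mog and Opalin), where 1.82% of all genes did and 0.368% rose, and Mbp, Cnp and Omg did not pass. Read outside the range near the array maximum, 5 of 9 genes fell. Of the 11 probe sets 1, the second Opalin set, had all 4 group means under 5, near background, so the size of its difference cannot be read. Every Olig2cre/DA-Cat array lay below every wild-type array for 20 of 24 probe sets and 9 of 9 genes, which held for 8.63% of all probe sets and 9.69% of all genes.

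Opalin had the largest day 15 difference. It had 10.34, 10.82 and 10.73 in Olig2cre/DA-Cat, against 11.79, 11.70 and 11.46 in wild type, and fell by 1.02 ± 0.21 log2 (SE, adjusted p = 0.0272). That call was lost in 10 of 25 other settings, among them the replicate block (adjusted p = 0.0512). Mog had 10.61, 11.05 and 10.73 in Olig2cre/DA-Cat, against 11.75, 11.50 and 11.71 in wild type, a difference of -0.85 ± 0.16 (SE, adjusted p = 0.0185). Both thus stood near 1 log2 below wild type, at 49.2% and 55.3% of its signal.

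Mal had 13.21, 13.33 and 13.08 in Olig2cre/DA-Cat, against 13.82, 13.77 and 13.80 in wild type. It fell by 0.59 ± 0.11 log2 on its brightest probe set and by 0.79 ± 0.12 on the dimmer one (SE, adjusted p = 0.0185 and 0.00486). Cldn11 had 10.93, 11.32 and 11.11 in Olig2cre/DA-Cat, against 11.82, 11.77 and 11.82 in wild type, and fell by 0.68 ± 0.12 log2 (SE, adjusted p = 0.0135). Mag had 11.88, 12.40 and 12.15 in Olig2cre/DA-Cat, against 12.66, 12.64 and 12.71 in wild type, and fell by 0.53 ± 0.11 log2 (SE, adjusted p = 0.0364), a call lost in 13 of 25 other settings, among them the replicate block (adjusted p = 0.0513). The brightest Mobp probe set had 13.23, 13.48 and 13.32 in Olig2cre/DA-Cat, against 13.88, 13.77 and 13.94 in wild type. In all 3 of its 5 probe sets fell, by 0.52, 0.67 and 0.57 log2, and the other two were at -0.28 and -0.61 without passing. The Olig2cre/DA-Cat arrays were more spread than the wild-type arrays for Mag, at 12.14 ± 0.26 in Olig2cre/DA-Cat and 12.67 ± 0.04 in wild type (SD, n = 3 each).

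For Mbp no probe set passed at day 15, and the 8 differences lay between -0.29 and 0.07. The 6 bright sets had means of 13.95 to 14.62 in Olig2cre/DA-Cat and 14.24 to 14.66 in wild type, near the top of the scale. The dimmest of these 6 differed by -0.29 (95% interval -0.48 to -0.10, adjusted p = 0.149), with no overlap between groups. For Cnp 1 of 3 probe sets fell, the dimmest, by 0.53 ± 0.11 log2 (SE, adjusted p = 0.0281); the others were at -0.47 and -0.20. Omg had 11.79, 11.91 and 11.83 in Olig2cre/DA-Cat, against 12.08, 12.09 and 12.10 in wild type, and its difference of -0.25 did not pass (95% interval -0.42 to -0.08, adjusted p = 0.178).

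The number of day 15 calls changed with the arrays used, among the members and over all probe sets. The count of 11 probe sets was 3 without Olig2cre/DA-Cat replicate 1, 5 without its replicate 3, 3 without wild-type replicate 1, and 6 without wild-type replicate 2 or 3, and that of 6 genes was 1, 1, 1, 3 and 3 in the same order. Over all 45037 probe sets the 613 lower calls became 299, 310, 302, 432 and 452 in that order. They became 804 without Olig2cre/DA-Cat replicate 2. From the day 15 arrays alone limma called 1 of 24 probe sets and 0 of 9 genes (18 and 8 at an unadjusted p under 0.05). In that fit 71 of all 45037 probe sets were lower. Among the Olig2cre/DA-Cat arrays of day 15 the muscle mean was 11.38, 5.25 and 8.92 on replicates 1 to 3, and replicate 2 was highest for 9 of 9 myelin genes while replicate 1 was lowest for 8. In wild type at day 15 it was 6.44, 5.16 and 7.87, and replicate 2, with the lowest muscle mean, was lowest for 5 of 9 myelin genes. At day 4 replicate 2 had the highest muscle mean in both genotypes, and it was lowest for 1 of 9 myelin genes in Olig2cre/DA-Cat and 8 of 9 in wild type. The order of muscle and myelin levels thus differed between groups. Of the 10 muscle genes 0 were called by limma at day 15 (0 at an unadjusted p under 0.05) and 10 of 10 had a positive difference, between 1.37 and 2.51. A fit that carried the muscle mean as a covariate left 5 probe sets and 2 genes lower, where 313 of all 45037 probe sets were lower. Without the 3 arrays of a muscle level over 8 (Olig2cre/DA-Cat replicates 1 and 3 at day 15 and 2 at day 4), 1 Olig2cre/DA-Cat array was left at day 15. Mog was then at -0.60, Mag at -0.27 and Opalin at -0.83, each a smaller difference than with all 12 arrays. With 1 array in a group the number of calls was not read. Whether the muscle RNA took part in the myelin differences was not tested.

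**Figure D3:**
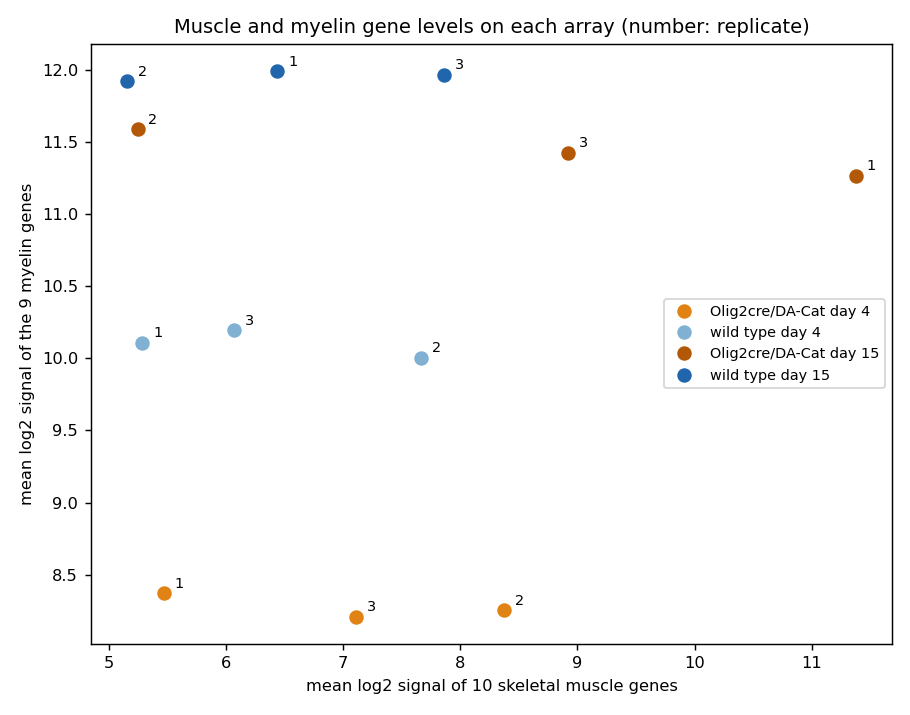
Mean log2 signal of 10 skeletal muscle genes (x) against the mean of the 9 myelin genes (y, brightest probe set not near the array maximum for each, which for Mbp is the set that barely varied) on each of the 12 arrays, coloured by group and numbered by replicate. In Olig2cre/DA-Cat at day 15 the muscle level runs from 5.25 to 11.38 and the myelin mean is 11.27, 11.59 and 11.42 on replicates 1 to 3, below the wild-type values of 11.99, 11.92 and 11.97.

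Schwann cells of nerve roots make Mbp, Mag, Mal and Cnp too. Of 8 Schwann cell markers 5 were measured, with a mean level between 7.08 and 7.43 in Olig2cre/DA-Cat and 6.50 and 7.12 in wild type at day 15. Of the 5, 1, the peripheral myelin gene Ncmap, rose at day 15, by 1.25 (adjusted p = 0.00687), where 0.368% of all genes rose. At an unadjusted p under 0.05 there were 3 of the 5 at day 15, and all 5 had a positive difference, with a median of 0.51. Cldn19, a claudin of Schwann cells, was under 5 in all 4 groups. At day 4 the level was 6.66 to 6.98 in Olig2cre/DA-Cat and 6.59 to 6.91 in wild type, with 0 of 5 called by limma (0 at an unadjusted p under 0.05). The part of Schwann cells in the myelin values was not tested. Neuron, astrocyte and microglia markers had 0 of 10, 0 of 7 and 0 of 7 genes called at either day by limma, with 2, 2 and 1 at an unadjusted p under 0.05 at day 4 and 3, 0 and 1 at day 15. Meningeal and fibroblast markers had 0 of 6 called at either day (0 and 4 unadjusted), with medians of 0.26 at day 4 and 0.73 at day 15. Over all genes 1.45% fell and 0.561% rose at day 4, and 1.82% fell and 0.368% rose at day 15. With shares so low, 0 called in such small lists says little. The share of all genes at an unadjusted p under 0.05 was not counted. Of 9 precursor markers 3 fell at day 4 (Gpr17 by 1.41 log2, Tnr by 0.92 and C1ql1 by 0.42), where 1.45% of all genes did, and 0 at day 15. At an unadjusted p under 0.05 there were 6 of the 9 at day 4 and 2 at day 15. Negative differences were found for 8 of 9 at day 4 and 7 at day 15, and 1 had a called positive interaction.

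Whether the genotype effect differed between the days was tested as an interaction, the day 15 difference minus the day 4 difference. Of the 24 probe sets 18 had a positive value past the threshold and 0 a negative one, where 0.135% of all probe sets had a positive and 0.0844% a negative one. At the brightest probe set 7 of 9 genes passed, all positive, where 0.176% of all genes were positive and 0.132% negative. Read outside the range near the array maximum, 6 of 9 passed. Mog was at 2.61 ± 0.23 (SE, adjusted p = 0.000137), Mobp at 2.50 ± 0.12 (SE, adjusted p = 9.93e-07), Cldn11 at 1.96 ± 0.17 (SE, adjusted p = 0.000141) and Mag at 1.95 ± 0.16 (SE, adjusted p = 8.01e-05). Their genotype gap was thus narrower at day 15. For Mbp the 8 values ran from 0.10 to 2.29, and the 6 that passed, 0.77 and above, come from the sets close to the array maximum.

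Opalin and Omg were the 2 genes without a called interaction. Opalin was at -0.02 (95% interval -0.65 to 0.61, adjusted p = 0.989), an interval too wide to show equal effects, and its day 4 values were dim. Omg was at 0.00 (95% interval -0.24 to 0.25, adjusted p = 0.995). The interval of Omg lay under the values of the 7 genes that passed.

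**Figure D4:**
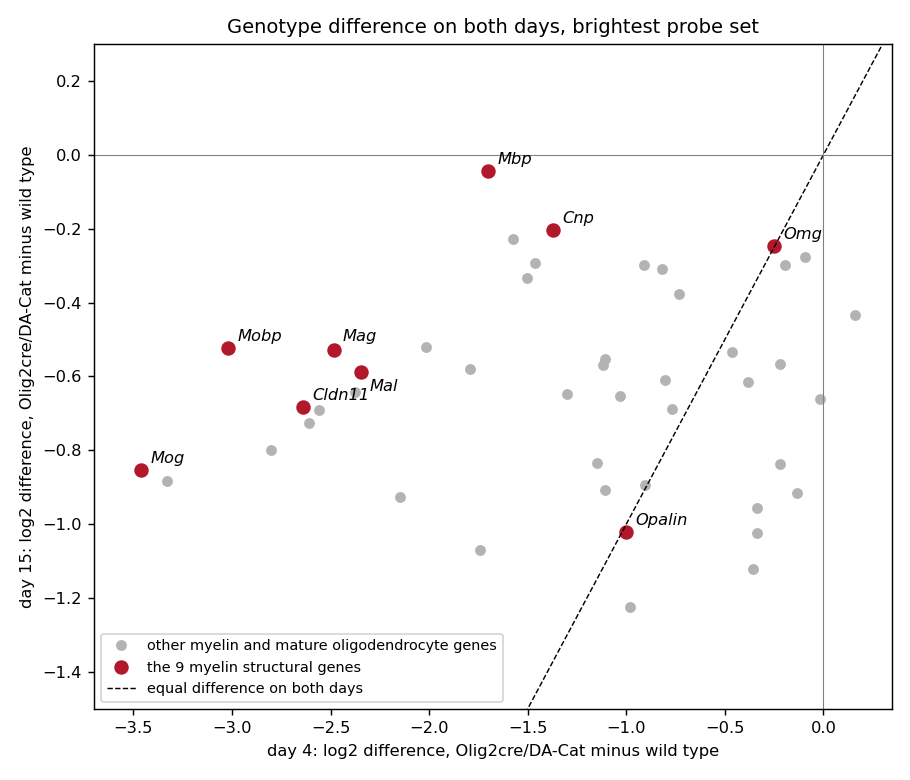
Genotype difference (log2, Olig2cre/DA-Cat minus wild type, brightest probe set) at day 4 (x) and day 15 (y) for the 9 genes in red and 37 other myelin and mature oligodendrocyte genes in grey; the axes have unequal scales and the dashed line marks equal differences. Opalin and Omg lie on that line, and the other 7 lie above it, with Mog at -3.46 and -0.85.

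Between day 4 and day 15 the members rose in both genotypes. In Olig2cre/DA-Cat 23 of 24 probe sets rose, where 17% of all probe sets did, and in wild type 22 of 24, where 16.5% did. Both counts include the second Opalin set, whose group means were all under 5. At the brightest probe set 9 of 9 genes rose in each genotype, where 20.1% of all genes did in Olig2cre/DA-Cat and 19.9% in wild type, and 8 of 9 in each genotype when read outside the range near the array maximum. Mog rose by 5.33 ± 0.16 log2 in Olig2cre/DA-Cat (SE, adjusted p = 3.95e-10) and by 2.73 ± 0.16 in wild type (SE, adjusted p = 9.91e-08). Opalin rose by 5.28 ± 0.21 log2 in Olig2cre/DA-Cat (SE, adjusted p = 2.51e-09) and by 5.30 ± 0.21 in wild type (SE, adjusted p = 9.36e-09), from dim values. Omg rose by 1.32 ± 0.08 log2 in Olig2cre/DA-Cat (SE, adjusted p = 7.25e-08) and by 1.31 ± 0.08 in wild type (SE, adjusted p = 1.12e-07). Mobp rose by 3.98 ± 0.09 log2 in Olig2cre/DA-Cat and by 1.48 ± 0.09 in wild type, and Mag by 3.15 ± 0.11 in Olig2cre/DA-Cat and 1.19 ± 0.11 in wild type (SE). The largest rises in wild type were those of Opalin, Mog and Mal, and Mal rose by 4.07 log2 in Olig2cre/DA-Cat and 2.31 in wild type. The day and genotype comparisons share arrays, so these values restate the differences above from another side. The flat Mbp probe set rose in neither genotype.

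The members differed in how alike their courses were. Each gene was read at its brightest probe set not near the array maximum, centred on its own mean. Mag and Cldn11 differed by a root mean square of 0.157 log2 over the 12 arrays, and Mobp and Mag by 0.218. Opalin differed from the nearest member, Mal, by 1.02. Omg was nearest to Cnp, at 0.668. Mbp, read at its flat probe set, was left out of this description. Among all other genes the nearest to Mobp were Ugt8a, the galactocerebroside synthase, at 0.211, Nipal4 at 0.296 and Tmem125 at 0.301. For Mog they were Ermn, a cytoskeletal protein of oligodendrocytes, at 0.142, then Ppp1r14a at 0.563 and Tmem88b at 0.587. For Opalin they were Klk6, a protease, at 0.404, Gm19439 at 0.541 and Ppp1r14a at 0.935, and for Omg Adk, an adenosine kinase, at 0.0819, Abca2, a lipid transporter, at 0.0986 and Slc39a12, a zinc transporter, at 0.101. Against Mobp, Mog, Opalin and Omg the median gene lay at 1.55, 2.39, 2.71 and 0.688. The nearest genes of Omg thus followed a course of small range.

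Other genes of the sheath were taken from lists of known roles. Of 37 measured genes of myelin and mature oligodendrocytes outside the 9, 25 fell at day 4 and 0 rose (median -0.98), and 23 fell at day 15 and 0 rose (median -0.65). The day 15 count was 10 from the day 15 arrays alone, where 71 of all 45037 probe sets were lower. Without the 3 arrays of a muscle level over 8 the calls were not read, since 1 Olig2cre/DA-Cat array was left at day 15. Over all genes 1.45% fell at day 4 and 1.82% at day 15, and the medians were 0.03 and 0.02. At day 4 those with the smallest p were Ermn at -3.33, Tmem88b at -2.80, Gsn, an actin-severing protein, at -2.02 and Hapln2, a matrix link protein at the node of Ranvier, at -1.74. At day 15 they were Hapln2 at -1.07, Anln at -1.22, Prr18 at -0.96 and Aspa, which cleaves N-acetylaspartate, at -1.12. Of the 37, 10 had a called positive interaction and 0 a negative one, where 0.176% and 0.132% of all genes did. The median of their interaction was 0.36, against 1.76 for the 9 members at the brightest probe set. It was 1.41 for the 9 members read outside the range near the array maximum.

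Enzymes of myelin lipids fell in 8 of 13 measured cases at day 4 and 5 of 13 at day 15, and 0 rose. Over all genes 1.45% fell at day 4 and 1.82% at day 15. The day 15 count of these enzymes was not repeated in the other settings. Ugt8a was at -2.53 and -0.56 at the 2 days, and Fa2h, which hydroxylates the fatty acids of myelin lipids, at -2.27 and -0.72. The fatty acid elongases Elovl7 and Elovl1 fell by 1.95 and 1.06 log2 at day 4, and the ceramide synthase Cers2 and Elovl1 fell by 0.63 and 0.55 log2 at day 15.

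Of 18 measured regulators of myelin genes 8 fell at day 4 and 5 at day 15, and 0 rose, and 0 had a called interaction in limma (4 at an unadjusted p under 0.05). Of all genes 1.45% fell at day 4 and 1.82% at day 15. The day 15 count of regulators was not repeated in the other settings. Myrf, which binds myelin gene regulatory regions directly, was at 7.86 in Olig2cre/DA-Cat and 9.69 in wild type at day 4, and fell by 1.83 ± 0.14 log2 (SE, n = 3 each). At day 15 it was at 9.56 in Olig2cre/DA-Cat and 10.33 in wild type, and fell by 0.77 ± 0.14 log2 (SE). Sox10 fell by 1.06 and 0.61 log2 at the 2 days, and Qk, an RNA-binding protein that stabilises and exports myelin transcripts, by 0.54 and 0.41. Olig2, whose gene drives the Cre, fell by 0.90 log2 at day 4, and Nkx6-2, a transcription factor of oligodendrocytes, by 0.91 at day 15.

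Mag and Omg are ligands of the Nogo receptor, through which myelin restrains axon growth. Of 8 genes of the receptor complex, its coreceptors and Nogo itself, 0 fell at each day. Of the 8, 1 rose at each day, where 0.561% of all genes rose at day 4 and 0.368% at day 15. This was Tnfrsf19, a coreceptor that is also a known Wnt target, which rose by 0.91 ± 0.11 log2 at day 4 and 0.62 ± 0.11 at day 15 (SE, adjusted p = 0.000477 and 0.011). Rtn4r, the receptor, differed by 0.19 and -0.15 and did not pass.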

How the data were processed

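Total RNA was labelled with biotin by an Affymetrix 3' IVT protocol, 1 sample per array, per the labels. The deposited values are 1 log2 signal per probe set and array; the authors' background correction, probe summary and normalization are not given in the labels, and the log2 scale was judged from the values. Of 45101 probe sets 64 controls were left out and 45037 tested, without a filter on brightness. Symbols came from the platform annotation (34958 probe sets with 1, 932 with several, 9211 unnamed); all 24 of the members matched RefSeq symbols by Entrez identifier. Group means over the 12 arrays and their contrasts came from lmFit and eBayes of limma 3.58.1 (R 4.3.3; 8 residual and 4.38 prior degrees of freedom), two-sided, with Benjamini-Hochberg adjustment over all probe sets. For lists each gene was read at its brightest probe set; 130 of 139 entries were measured and the other 9 were not analysed here. The members and lists were chosen with earlier results of these data known, and the sequence motifs after the sequences were seen. Named genes were all members, up to 4 of a list with the smallest p at each day, and the 3 genes nearest to Mobp, Mog, Opalin and Omg by root mean square difference; Ncmap, Cldn19, Rtn4r and the precursor genes were chosen after their values were seen. The labels call the replicates biological. Array data have no read depth, so the number of arrays limits precision. The p-values set a difference against the spread between samples of the same group, and the number of animals behind a sample is not stated. On simulated arrays of 45037 probe sets for the day 4 comparison, 61% of 100 changes of 0.5 log2 and 96% of 100 changes of 1 log2 were recovered. False calls were 11, or 6.55% of calls. The simulated noise was independent between probe sets, so it held no effect shared across an array, such as the muscle level. Replicate numbers were not taken as pairs. Alternatives were quantile normalization, median centring, brightness filters, 1 probe set per gene, trend and robust settings, array weights, the replicate block, fits to the compared arrays alone, and muscle, Schwann and Eif2s3y levels as covariates, each array left out, and, chosen after seeing the data, the 3 arrays with a muscle level over 8 left out.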

Additional observations from a re-analysis of the deposited data

Results flagged for a closer look

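The genotype difference was not the same at both days for 18 of the 24 probe sets, by the interaction test in limma. The values, day 15 difference minus day 4 difference in log2, were 1.65, 1.41, 0.77, 1.19, 1.24 and 2.29 for the 6 bright Mbp probe sets, where the day 15 levels near the array maximum limit the reading. They were 2.50, 2.63, 2.45 and 2.48 for Mobp, 1.17, 1.41 and 1.15 for Cnp, and 1.76 and 0.99 for Mal. Cldn11 was at 1.96, Mag at 1.95 and Mog at 2.61. The call for the dimmer Mal probe set, at 0.99, was lost in 12 of 23 other settings (adjusted p up to 0.176), and that for the Mbp set at 0.77 in 3 of 23 (up to 0.086). The third Cnp set, at 1.15, lost it in 1 of 23 (adjusted p = 0.0508), and the other 15 in 0.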

How the results depend on the processing

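No called difference changed direction in the settings run; of the single probe-set values 2760 kept direction and side of the threshold, 120 lost and 11 gained a call. Fits to the day 15 arrays alone left 1 of 24 probe sets, 0 of 9 brightest probe sets and 10 of 37 other myelin genes lower at day 15 (18, 8 and 34 at an unadjusted p under 0.05). Over all 45037 probe sets 71 were lower in that fit, against 613 in the main one. With the muscle covariate 5 probe sets and 2 genes were lower at day 15, where 313 of all probe sets were lower. Without the arrays of a muscle level over 8, chosen after seeing the data, 1 Olig2cre/DA-Cat array was left at day 15. The day 15 differences of Mog, Mag and Opalin were then -0.60, -0.27 and -0.83, and the number of calls was not read. With the Schwann covariate 6 other myelin genes had a called interaction, against 10. Leaving out each array gave 18 to 21 probe sets lower at day 4 and 3 to 12 at day 15, 7 to 8 and 1 to 6 at the brightest probe sets, and 24 to 27 and 16 to 27 other myelin genes. For the interaction the ranges were 17 to 18, 7 to 7 and 8 to 11, for the rise in Olig2cre/DA-Cat 23 to 23, 9 to 9 and 35 to 35, and in wild type 22 to 22, 9 to 9 and 34 to 36. The replicate block gave 19 and 9 probe sets lower at day 4 and day 15 and 18 interactions. The 18 same-number correlations of deviations lay between -0.225 and 0.163, with 6 over 0.1, and 6 were best with their own number. With 3 samples per group these values cannot tell whether samples of 1 number share a litter or a batch. Opalin at day 4 was not called with trend and robust settings (adjusted p = 0.0584), the block (0.0534), day 4 arrays alone (0.0643) or the Eif2s3y covariate (0.0531), with a range up to 0.139 over all settings. Signals near the array maximum limit Mbp and the brightest sets of Cnp, Mobp and Mal, and those near 5 limit Opalin and Mog at day 4.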
